A study of Mus musculus with 3 samples.

Results

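Some stretches of the genome carried several NKX2-5 regions close together in the mouse heart at E11.5, and these dense clusters are described here. Peaks of the 2 NKX2-5 ChIP libraries that overlapped by at least 1 bp were merged into union regions, and neighbouring union regions were stitched when the gap from end to start was at most 12.5 kb. Stitched groups of at least 3 union regions were kept. Of 7249 union regions, 600 (8.28%) lay in 171 such clusters, 1284 lay in pairs and 5365 stood alone. The members were thus chosen by the positions of the peak calls of S1 and S4, so the number, spacing, scores and widths of the regions are given as a description, with no test.

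Chromatin bound by NKX2-5 was recovered from hearts of wild-type embryos of the Parkes mouse strain at E11.5, with an antibody to NKX-2.5 (N-19, catalogue number sc-8697), and its DNA was sequenced (ChIP-seq). The group held 2 ChIP libraries, which are called S1 and S4, beside 1 Input library that was not analysed here, so no condition could be compared with another. The labels do not say whether S1 and S4 came from separate hearts or how many hearts were pooled, and the heart holds muscle, endothelial, valve and blood cells that these lists cannot tell apart. S1 held 4418 peaks and S4 held 5441. Each peak had a score from 140 to 3100, which is the negative log10 of its p-value in the peak caller multiplied by 10, and read numbers were not used here. The highest value, 3100, was the same in S1 and S4 and recurred at several regions, so it may be an upper limit of the score. Sums, ranks, ratios and shares that include it would be limited in the same way. Where a region held several peaks of 1 library, its score in that library is the sum of their scores. The control behind the scores is not given and the lists were not scaled to each other, so sizes of S1 and S4 scores cannot be compared directly. The interval after a percentage is the exact binomial one of Clopper and Pearson, with a confidence level of 0.95. They cover counting error only and treat regions as independent, which regions of 1 locus are not, so no p-value is given.

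NKX2-5 is a homeodomain transcription factor that marks cardiac progenitors and remains in the working heart muscle, where it acts with GATA, T-box, MEF2 and other factors on genes of contraction, conduction and growth. Regulatory elements of genes that define a cell type are often found in groups, with several elements around or within 1 gene. The homeodomain of NKX2-5 prefers sequences that hold AAGTG, and MEIS factors, homeodomain proteins of another class, prefer sequences that hold TGACA.

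The sequences below show what lay at members of the clusters that the results turn on. Each is the forward strand of the NCBIM37 assembly, which is mm9, reaching 100 bp to either side of the midpoint, except for the second Ldb3 window, which is cut to the 30 bases around its match because transcript ends were annotated beside it. Capitals mark exact matches to AAGTG, to TGACA and to the spaced pair GTGNTGACA, each of which may also stand reversed on the other strand (as CACTT for the first). In the spaced pair, the end of an NKX2-5 core stands 1 base before a MEIS core. The Myocd and Tnnt1 windows were added after their values had been seen, since they hold the spaced pair in clusters over genes of the heart lists.

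Ldb3 region 3, intron of Ldb3, chr14:35387356-35387556: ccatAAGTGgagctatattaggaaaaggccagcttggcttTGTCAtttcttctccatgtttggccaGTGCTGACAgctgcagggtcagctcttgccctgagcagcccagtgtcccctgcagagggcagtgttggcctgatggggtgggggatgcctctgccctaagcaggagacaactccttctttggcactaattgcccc
Ldb3 region 5, within 1 kb of a transcript start inside Ldb3, chr14:35401650-35401679: agacatactgGTGCTGACAgcggtggcttc
Myocd region 3, intron of Myocd, chr11:65023043-65023243: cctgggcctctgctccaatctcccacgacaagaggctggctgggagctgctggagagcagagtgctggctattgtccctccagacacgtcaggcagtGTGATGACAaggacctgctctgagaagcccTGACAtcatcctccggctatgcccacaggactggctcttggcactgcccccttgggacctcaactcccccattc
Tnnt1 and Tnni3 region 2, within 1 kb of a transcript start, chr7:4467986-4468186: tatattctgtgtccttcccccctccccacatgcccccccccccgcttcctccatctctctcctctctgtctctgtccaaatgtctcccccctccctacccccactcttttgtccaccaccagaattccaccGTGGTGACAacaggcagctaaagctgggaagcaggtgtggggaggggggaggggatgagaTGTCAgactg
Mir1a-1 and Mir133a-2 region 6, intergenic, chr2:180136130-180136330: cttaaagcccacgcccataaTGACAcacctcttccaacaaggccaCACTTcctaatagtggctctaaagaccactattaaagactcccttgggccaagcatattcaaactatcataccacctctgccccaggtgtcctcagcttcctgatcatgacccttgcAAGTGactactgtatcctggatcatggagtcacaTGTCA
Ankrd1 region 5, intergenic, chr19:36204284-36204484: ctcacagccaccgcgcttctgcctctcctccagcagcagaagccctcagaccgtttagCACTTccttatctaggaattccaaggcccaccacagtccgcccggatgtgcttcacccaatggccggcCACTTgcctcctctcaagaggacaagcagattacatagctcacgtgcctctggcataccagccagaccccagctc
Palm2 region 6, intron of Palm2, chr4:57601324-57601524: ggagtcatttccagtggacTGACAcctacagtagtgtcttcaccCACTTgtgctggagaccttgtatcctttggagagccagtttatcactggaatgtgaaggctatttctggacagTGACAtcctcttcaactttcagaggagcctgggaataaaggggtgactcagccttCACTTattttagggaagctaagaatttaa
Myl2 region 2, intergenic, chr5:122544558-122544758: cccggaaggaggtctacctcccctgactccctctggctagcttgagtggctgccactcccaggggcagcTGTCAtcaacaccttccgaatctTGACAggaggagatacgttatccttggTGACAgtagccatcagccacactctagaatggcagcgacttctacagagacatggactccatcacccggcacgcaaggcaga

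The first 4 windows hold the spaced pair, as GTGCTGACA at both Ldb3 regions, GTGATGACA at Myocd and GTGGTGACA at Tnnt1 and Tnni3. The windows of Mir1a-1 and of Palm2 hold 2 AAGTG cores and 2 TGACA cores each, with no spaced pair. The Ankrd1 window holds 2 AAGTG cores and no TGACA, and the Myl2 window holds 3 TGACA cores and no AAGTG. These are single windows, and over all windows of a cluster AAGTG lay in 2 of the 4 at Myl2 and TGACA in 1 of the 5 at Ankrd1.

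Most dense clusters were small. There were 120 clusters with 3 regions, 37 with 4, 5 with 5, 6 with 6, 2 with 7 and 1 with 17. Their span ran from 2.72 kb to 79.3 kb with a median of 13.2 kb (quartiles 8.20 and 18.4 kb), 2.42 Mb in all, and the regions covered a median of 25.5% of it. The 429 gaps inside clusters had a median of 2.81 kb, and 129 of them (30.1%) were at most 1 kb while 49 (11.4%) were over 10 kb. When regions at most 1 kb apart were joined, 109 of the 171 clusters (63.7%, 56.1 to 70.9) still held 3 regions, 50 held 2 and 12 became 1 broad region. Clusters lay on 19 chromosomes, with 20 on chromosome 13, 1 on X and none on 15.

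**Figure D1:**
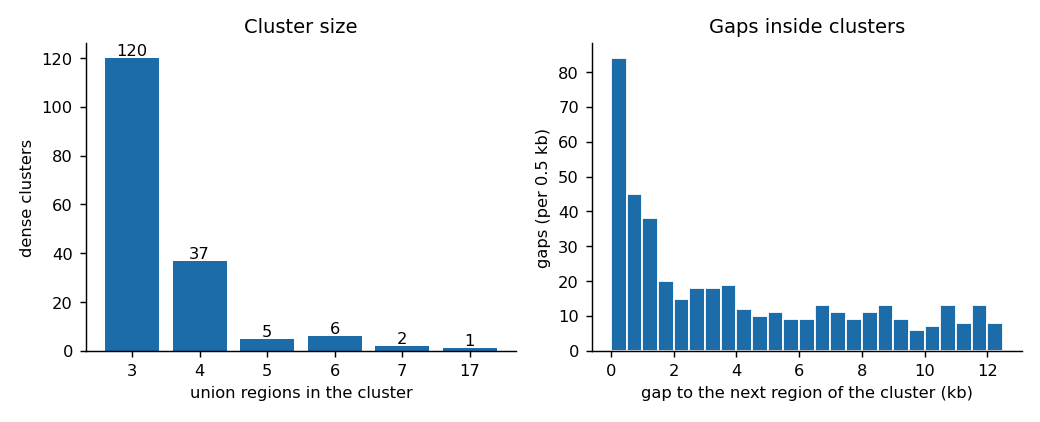
Left, number of dense clusters (vertical axis) by the number of union regions they held (horizontal axis), and right, number of gaps between neighbouring regions of a cluster per 0.5 kb of gap length in kb. Clusters of 3 regions made up 120 of 171, and the shortest gaps were the most frequent.

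The limit on the gap parted groups whose gaps were close in length. The largest gap within a cluster of 3 regions was 12378 bp, in the second of the clusters over Jph2, followed by 12316 bp at Fem1a and Ticam1. Just outside, gaps of 12684 bp at Camta1 and Gm13090, 12738 bp at Rnaseh2a, Prdx2, Junb and Hook2, and 12856 bp at Mylk3 kept groups of 3 regions from being counted.

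Several neighbouring clusters lay over 1 gene or gene pair and were parted only by a somewhat longer gap. The distance was 13.9 kb between the clusters over Tbx5, 20.7 kb between those over Gata4, 22.9 kb from the Tnni1 cluster to the Tnnt2 cluster and 24.8 kb between those over Jph2. Another cluster lay 15.4 kb from the cluster of Nppb and Nppa.

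Dense clusters held much the same share of the peaks of each library, 8.67% (7.86 to 9.54) in S1 and 8.86% (8.12 to 9.65) in S4. Among the 600 members, 235 (39.2%, 35.2 to 43.2) had a peak in S1 and S4, 121 (20.2%) had a peak in S1 only and 244 (40.7%) in S4 only, against 25.1% and 39.8% of all union regions. The background over all union regions was 35.1% with a peak in each library, and outside the clusters it was 34.8% (33.6 to 35.9), so the members were close to the rest. Every region had a peak in each library in 12 clusters, and no region did in 36. A count of at least 3 regions was reached by S1 peaks in 51 clusters, by S4 peaks in 104, by each library in 26, and by neither library on its own in 42. Those 42 clusters reached 3 regions only by adding the lists together.

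When clusters were built from 1 library and read in the other, the other library took no part in the choice. Whether the libraries share hearts or a control is not known, so they may not be independent. S1 alone gave 61 clusters with 224 peaks. Of these clusters, 60 held at least 1 S4 peak and 23 (37.7%, 25.6 to 51.0) held at least 3. An S4 partner overlapped 73.2% (66.9 to 78.9) of the S1 peaks in these clusters against 58.1% (56.6 to 59.6) of the S1 peaks elsewhere. S4 alone gave 105 clusters with 373 peaks, of which 95 held at least 1 S1 peak and 25 (23.8%, 16.0 to 33.1) held at least 3. An S1 partner overlapped 50.9% (45.7 to 56.1) of these S4 peaks against 46.7% (45.3 to 48.1) of the other S4 peaks, and these intervals overlap. The share with a partner was thus higher inside clusters in the direction from S1 to S4, while from S4 to S1 the difference was within counting error. Peaks over 2 kb made up 4.02% of S1 peaks in its clusters and 0.215% elsewhere, and 10.7% and 0.454% in S4. The part of width in the share with a partner was not tested.

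Clusters with a high summed score in S1 tended to have a high one in S4. Among the 162 clusters with peaks of each library, Spearman's rho of the summed scores was 0.632 and Pearson's r of their log10 was 0.644, over clusters that share the libraries and differ in size. The ratio of the S4 sum to the S1 sum had a median of 1.59 (quartiles 0.994 and 2.42) and ran from 0.201 to 6.11. Since the scores of S1 and S4 are on scales of their own, a ratio is read here only against that median, never as more or less binding. The region with the highest score was the same in 94 of the 162 clusters (58.0%). It held a median of 63.6% of the sum in S1 and 56.3% in S4, so that much of a cluster's score came from 1 region.

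**Figure D2:**
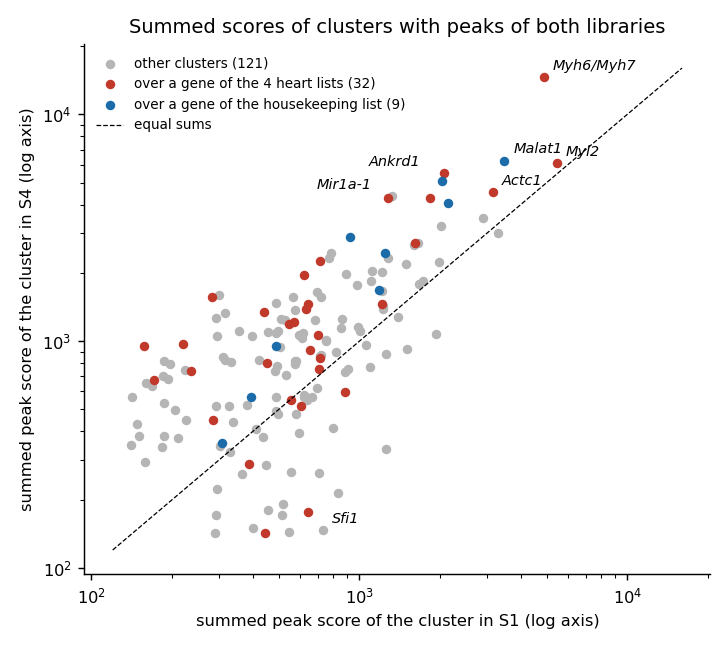
Summed peak score of each dense cluster in S1 (horizontal log axis) and S4 (vertical log axis) for the 162 clusters with peaks of both libraries, coloured by the gene lists their span covers, with a dashed line at equal sums that does not mark equal binding. Myh6 and Myh7, Malat1, Myl2 and Ankrd1 lie at the upper right, and Sfi1 lies farthest below the line with a ratio of 0.201.

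The largest cluster lay over Myh6 and Myh7, the genes of the alpha and beta cardiac myosin heavy chains. It held 17 regions in 79.3 kb at chr14:55555314-55634641, with 7 regions in each library, 1 in S1 only and 9 in S4 only. The cluster held 13 peaks of S1 and 16 of S4, so some region scores in S1 are sums. Its summed score was 4889.5 in S1, the second highest, and 14640.0 in S4, the highest. The broadest member spanned 11100 bp with its midpoint in an intron of Myh6, and it scored 1813.5 in S1 and 3100.0 in S4. Another broad member, 5186 bp within Myh7, was called in S4 only, with a score of 1797.1. The member at a transcript start of Myh7, 3387 bp wide, scored 688.9 in S1 and 2266.5 in S4, and an intergenic member at the Myh6 end scored 1100.2 and 1770.6. Of the 9 members called in S4 only, 8 were narrower than 2 kb. The gaps were as short as 103 bp, and 7 regions remained after joining those at most 1 kb apart. AAGTG lay in 9 of the 17 windows, TGACA in 8 and the spaced pair in none.

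**Figure D3:**
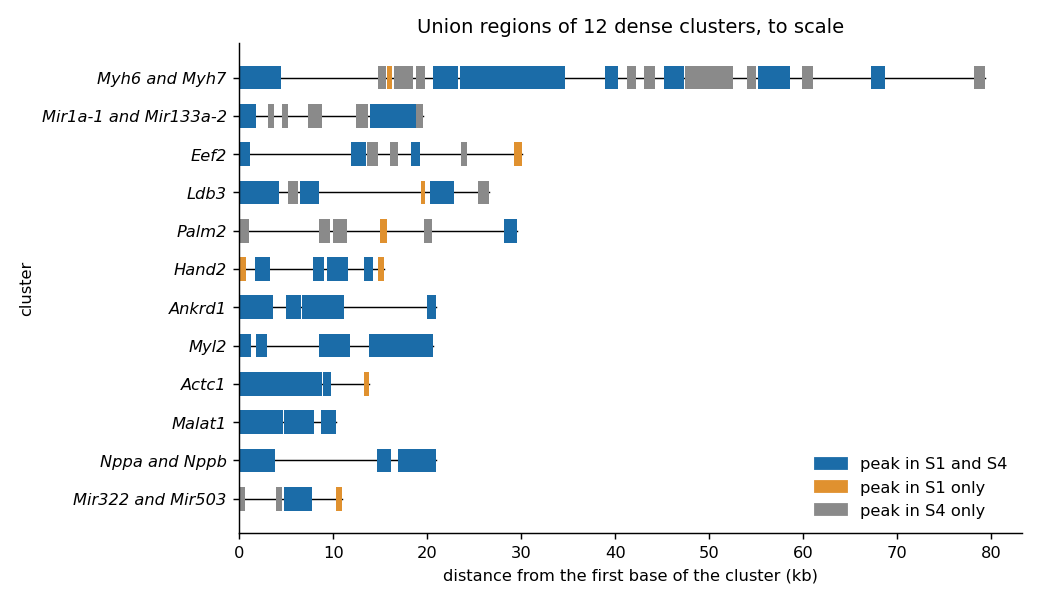
Union regions of 12 dense clusters drawn to scale from the first base of each cluster (horizontal axis, kb), 1 row per cluster, coloured by the libraries with a peak. The Myh6 and Myh7 cluster spans 79.3 kb with 17 regions, while every region of Ankrd1, Myl2, Malat1 and of Nppa and Nppb has a peak in S1 and S4.

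Other genes of the contractile apparatus had clusters with high scores in each library. The Myl2 cluster at chr5:122542293-122562861 covers the gene of the ventricular regulatory light chain of myosin, and its 4 regions were each called in S1 and S4. The cluster held 6 peaks of S1 and 4 of S4, so some region scores in S1 are sums. Its summed score was the highest of all in S1, at 5449.0, and the third in S4, at 6091.1. The broadest of its regions, 6776 bp, scored 2264.0 in S1 and 3100.0 in S4, while the first region scored 1214.2 in S1 and 446.2 in S4, so the order of the regions differed between the libraries. Actc1, which encodes the cardiac alpha actin, had 4 regions at chr2:113870666-113884493, with 7 peaks of S1 and 3 of S4. The region over its gene was 6674 bp wide with scores of 2279.7 and 3100.0 in S1 and S4, and only the last region lacked an S4 peak.

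Ankrd1 encodes an ankyrin repeat protein of the sarcomere and nucleus of heart muscle. All 5 of its regions, at chr19:36184024-36204897, had a peak in S1 and S4, with summed scores of 2074.6 and 5516.3. The region farthest from the gene, whose sequence is printed above, scored 555.7 in S1 and 237.6 in S4, and the region at the start site scored 319.2 and 1349.8. The distal region was thus the second of the cluster in S1 and the last in S4.

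Ldb3, which encodes a protein of the Z-disc, had 6 regions at chr14:35379452-35406050. Regions 1, 3 and 5 were called in each library, with scores of 610.4, 284.8 and 230.6 in S1 and 1841.3, 833.5 and 730.0 in S4. Regions 3 and 5 held the spaced pair, and no other cluster held it in more than 1 window. Csrp3, which encodes the muscle LIM protein, had 5 regions in its cluster, and only 2 had a peak in each library. Its start site region scored 534.4 in S1 and 1259.3 in S4, against 175.9 and 189.3 for the other shared region.

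The troponin genes had clusters with lower summed scores than those of Myh6 and Myh7, Myl2, Actc1, Ankrd1 and Ldb3. In S4 all their sums were above the median of all clusters (849). In S1 (median 572), Tnnt2 and Tnni1 were above it, and Tnnc1 and the cluster of Tnnt1 and Tnni3 were below. S4 had more peaks than S1 in each of these clusters except Tnni1. In the Tnnt2 cluster, 1 of 4 regions was called in each library, scoring 621.5 in S1 and 992.3 in S4. In the Tnni1 cluster, 3 of 4 were, with S4 scores from 256.4 to 757.9 and S1 scores from 152.4 to 327.8. Tnnt1 and Tnni3 shared a cluster of 4 regions in 8.41 kb with the highest ratio of S4 to S1, 6.11 against the median of 1.59. S1 had 1 peak there, with a score of 156.5, and S4 had 4 peaks with scores from 147.4 to 323.4. Clusters over Tnnc1, Tcap, Synpo2l, Myl3 and Myl9, which are also on this list, had 3 or 4 regions, of which 1 or 2 had a peak in each library. Their summed scores ran from 439.9 to 651.5 in S1 and from 915.8 to 1388.3 in S4.

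The clusters over genes of cardiac transcription factors varied widely in score. Of the 10, with Ankrd1 counted, 5 were above the median summed score of all clusters in S1 (572) and 3 in S4 (849). Hand2, a basic helix-loop-helix factor of the ventricles and outflow tract, had 6 regions at chr8:59796979-59812320 and S1 had a peak in all 6, whereas S4 had a peak in 4. Its highest scores were 319.4 in S1 and 631.0 in S4, in the same region. The cluster over Nkx2-5 itself, chr17:26970131-26987996, had 4 regions and none with a peak in each library. The S1 peak scored 283.6 and the S4 peaks scored 148.4, 161.5 and 140.8, and the start site region was the first of these. The clusters over Tbx5, a T-box factor of the left ventricle and atria, likewise had no region with a peak in each library. S1 peaks there scored from 169.7 to 464.4 and S4 peaks from 141.4 to 177.1.

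Gata4, a zinc finger factor, had clusters of 3 regions at chr14:63861104-63867253 and chr14:63887957-63892383. In each, 1 region had a peak in each library, with scores of 219.8 and 170.6 in S1 and 155.4 and 329.0 in S4. The highest score over Gata4 was 669.0, in S4 only, at a region within 1 kb of a transcript start. Myocd encodes a coactivator of serum response factor, and 2 of its 3 regions had a peak in each library. The region with the spaced pair scored 226.1 in S1 and 446.4 in S4. Smyd1, a histone methyltransferase of muscle, had 1 shared region of 4, scoring 549.1 in S1 and 414.9 in S4. Its cluster also overlapped Krcc1, and of these 2 genes only Krcc1 had its annotated start inside the cluster. Id3, an inhibitor of helix-loop-helix factors, had 2 of 3, and the stronger scored 565.7 and 492.2. Ranked by summed score among the 171, the 10 clusters over genes of this list, Ankrd1 included, stood from rank 8 to rank 155 in S1 and from rank 4 to rank 163 in S4. Ankrd1 was the highest in each library, Hand2 followed at rank 31 in S1 and rank 42 in S4, and the second Tbx5 cluster stood at rank 69 in S1 and was the lowest of the 10 in S4. The Nkx2-5 cluster stood at rank 140 and rank 137.

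Genes of membrane and signalling proteins had fewer clusters. The cluster of Cox17 and Popdc2, a membrane protein of the heart that binds cyclic AMP, had 5 regions, and its start site region held most of the score, with 1237.0 of 1614.6 in S1 and 1668.9 of 2701.6 in S4. Jph2 joins the surface membrane to the sarcoplasmic reticulum. Over it lay a cluster of 5 regions, of which 1 had a peak in each library (141.2 in S1 and 302.9 in S4), and a cluster of 3 (235.7 and 341.0 for the shared region). Kcnh2, a potassium channel of repolarisation, had 2 of 3 regions in each library, with S1 scores of 239.6 and 155.6 and S4 scores of 200.7 and 351.4. Pkp2, a protein of the desmosome, had 3 peaks of S4, with scores of 266.6, 161.8 and 201.3, and none of S1.

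Nppb and Nppa encode natriuretic peptides, and their cluster at chr4:147359368-147380327 had 3 regions, each with a peak in S1 and S4. S1 had 5 peaks in these regions and S4 had 3. The region scores were 682.5, 366.5 and 783.3 in S1 and 1653.1, 805.9 and 1828.7 in S4. The order of the regions was thus the same in the libraries. Bmp7, a ligand of the TGF-beta family, had 2 clusters 48.3 kb apart. The first had 2 shared regions of 3 and the second had none. Nrp1, a receptor of semaphorins and VEGF, had 1 shared region of 3, scoring 464.9 in S1 and 290.8 in S4. Erg, an ETS factor of endothelial cells, was the only cluster with no S4 peak, and its 3 S1 peaks scored 142.5, 143.7 and 213.9. Among the 8 clusters with no S1 peak the largest by score lay 3.20 kb from Lrsam1, with S4 scores of 462.0, 299.6 and 191.7.

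Counted by list, 228 of 22238 protein-coding genes (1.03%) had a gene body that a dense cluster overlapped. The share was 37.2% (23.0 to 53.3) in the list of the sarcomere and Z-disc, with 16 of 43 genes. It was 16.0% (7.17 to 29.1) for cardiac transcription factors, 8 of 50, and 10.3% (2.87 to 24.2) for ion channels, junctions and calcium handling, 4 of 39. It was 8.33% for signalling in the heart, 4 of 48, and 3.33% (0.0844 to 17.2) for blood and endothelium, 1 of 30. The list of highly transcribed housekeeping genes had 8 of 38, or 21.1% (9.55 to 37.3). The 4 heart lists together had 32 of 180 (17.8%, 12.5 to 24.2). The share of genes with any union region over the body was 59.4% in these 4 lists together and 60.5% in the housekeeping list, against 14.9% of all protein-coding genes. Among the 4 heart lists it ran from 39.6% for signalling to 81.4% for the sarcomere and Z-disc. The lists were made with earlier results of these data known and gene length was not taken into account, so the shares are a description.

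**Figure D4:**
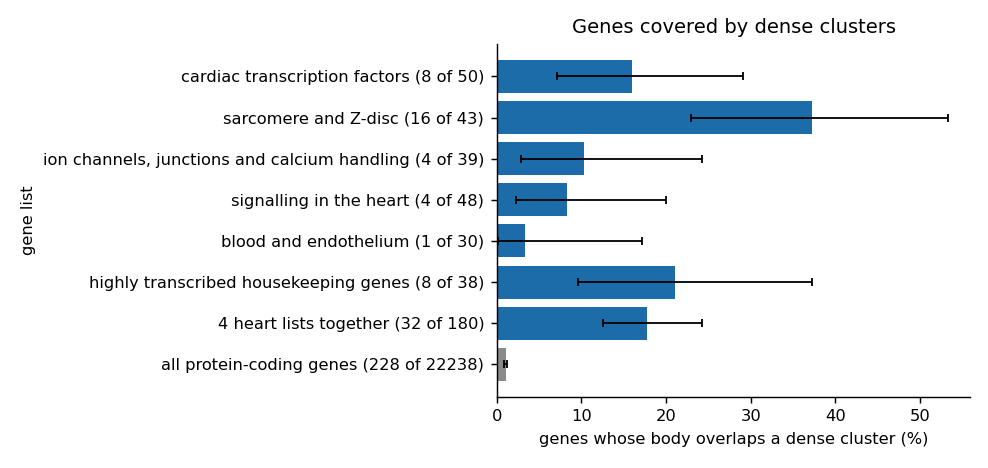
Percentage of the protein-coding genes of each list whose body overlapped a dense cluster (bars) with their exact binomial intervals (error bars, confidence level 0.95), beside all protein-coding genes (grey). The sarcomere list had the highest share, 37.2%, and housekeeping genes reached 21.1% against 1.03% of all genes.

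Housekeeping loci were among the strongest clusters. The cluster of Malat1, an abundant nuclear noncoding RNA, had 3 regions at chr19:5793769-5803994, each with a peak in S1 and S4, and its summed scores of 3475.1 in S1 and 6247.7 in S4 were the third and the second highest. Its regions covered 92.4% of the span, and with gaps of at most 1 kb joined it was 1 region. Clusters of Actb and Actg1, the genes of the cytoplasmic actins, had summed scores of 2034.6 and 2135.4 in S1 and 5077.2 and 4052.0 in S4. The cluster over Eef2, a translation elongation factor, had 7 regions in 30.1 kb, 3 of them in each library. Its summed scores were 1181.5 in S1 and 1677.5 in S4. This cluster also overlapped 4930442H23Rik, Dapk3, Itgb1bp3 and Atcay, and the annotated start of Eef2 lay outside it. All 7 regions are nevertheless counted below with the housekeeping clusters. The cluster of Gapdh had sums of 1241.8 in S1 and 2446.2 in S4, and those of Hspa8, Aldoa and Pfn1 ran from 307.1 to 489.2 in S1 and from 355.5 to 955.7 in S4.

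Histone genes also had clusters. The cluster from Hist1h4f to Hist1h2be covered 11 gene bodies, the most of any cluster, with 4 of 6 regions in each library and sums of 2008.9 in S1 and 3205.5 in S4. The cluster from Hist1h1c to Hist1h1a covered 9, and S1 had 1 peak there, with a score of 920.7. These genes are near-identical copies, and the mean share of sampled 32-mers that occurred once in the assembly was 75.8% and 82.0%, so read placement there is uncertain.

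Regions of the 9 housekeeping clusters lay at promoters more often than those of the 33 over heart genes. At housekeeping clusters 57.1% (39.4 to 73.7) of 35 regions lay within 1 kb of a transcript start, against 29.0% (21.6 to 37.3) of 138 regions at heart clusters. AAGTG lay in 34.3% (19.1 to 52.2) of the windows at housekeeping clusters, in 46.4% (37.9 to 55.1) at heart clusters and in 54.6% (49.7 to 59.4) at the other 129 clusters. The GATA sequence AGATAA lay in 1 of 35 housekeeping windows (2.86%, 0.0723 to 14.9) and in 28 of 138 heart windows (20.3%, 13.9 to 28.0). The intervals of housekeeping and heart clusters overlap for each of these sequences. TGACA lay in 45.7% and 47.8%, AGGTGT in 5.71% and 7.97%, and GGAATG in 7 of 35 and 19 of 138 windows, also with overlapping intervals. The median summed score was 1181 in S1 and 2446 in S4 at housekeeping clusters, 631 and 1065 at heart clusters, and 530 and 816 at the others. In each library the order of these medians was the same.

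Genes of microRNAs were looked at after the values had been seen. Dense clusters overlapped 19 of 1569 annotated miRNA genes (1.21%) in 10 clusters, and 13 of the 19 lay in 4 clusters, those of Mir208a and Mir208b within Myh6 and Myh7, of Mir1a-1 and Mir133a-2, of Mir143 and Mir145, and of Mir322, Mir503 and their neighbours on the X chromosome. RefSeq entries matched 14 of the 19 by symbol. Mature sequences are from RefSeq for GRCm38.p6, and capitals mark the seed, bases 2 to 8.

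mmu-miR-208a-3p: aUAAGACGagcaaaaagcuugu
mmu-miR-208b-3p: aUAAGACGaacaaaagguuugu
mmu-miR-1a-1-5p: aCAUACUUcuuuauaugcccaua
mmu-miR-322-5p: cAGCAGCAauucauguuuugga
mmu-miR-503-5p: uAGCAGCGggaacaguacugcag
mmu-miR-351-5p: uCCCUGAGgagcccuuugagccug
mmu-miR-450a-5p: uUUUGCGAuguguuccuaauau
mmu-miR-542-3p: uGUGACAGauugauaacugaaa

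The 3p arms of miR-208a and miR-208b, which are transcribed with the myosin genes they lie in, share the seed UAAGACG. The 5p arms of miR-322 and miR-503 begin their seeds with the same letters AGCAGC and differ in the last base. The cluster of Mir1a-1 and Mir133a-2, muscle miRNAs that are transcribed together, lay at chr2:180119758-180139337, 50.4 kb from the nearest start of a protein-coding gene, Gata5. It had 7 regions and tied with the Eef2 cluster for the second largest number. Region 6, 4891 bp wide, scored 1035.3 in S1 and 2324.4 in S4, and region 1 scored 292.4 and 781.7, while the other 5 were called in S4 only with scores from 141.1 to 376.4. The X cluster at chrX:50399832-50410692 held 7 miRNA genes in 10.9 kb. Its region 3, 3042 bp wide and within 1 kb of a transcript start, scored 1326.9 in S1 and 1882.7 in S4, and no other region there scored above 163.1 in either library.

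The remaining clusters with the most regions lay over genes outside the lists. Palm2, which encodes a paralemmin, had 6 regions in 29.5 kb, and region 6 scored 960.6 in S1 and 961.4 in S4 while the other 5 were called in 1 library with scores from 158.1 to 361.7. Hspb7, which encodes a small heat shock protein of heart and muscle, had 6 regions in 10.5 kb with 1 in each library, scoring 391.6 in S1 and 491.9 in S4, and 2 regions remained after joining those at most 1 kb apart. Gyg, which encodes glycogenin, the primer of glycogen synthesis, had 6 regions in 24.7 kb, and the shared region scored 247.2 and 326.9.

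Of the genes whose enhancers the study examined, Popdc2 and Myocd were covered by a cluster, as given above. A cluster of 3 regions, each with a peak in S1 and S4, lay near Lsp1 at chr7:149634392-149646001. Its nearest end was 0.712 kb from the start of Lsp1, 6.68 kb from that of Tnni2 and 38.7 kb from that of Tnnt3, and its regions scored 199.8, 264.5 and 751.2 in S1 and 239.2, 149.0 and 1278.8 in S4. No dense cluster lay within 100 kb of the starts of Cadm1, Lpar3, Gja1 or Hsf2.

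Most clusters overlapped a gene. Of the 171, 144 (84.2%, 77.9 to 89.3) overlapped the body of a protein-coding gene, 97 of them exactly 1, and 83 (48.5%, 40.8 to 56.3) held the start of one. The other 27 lay between 0.0670 and 448 kb from the nearest start, with a median of 43.9 kb. No share was computed for other spans of this length, so the 84.2% has no background. Counted by region, 59.5% (55.4 to 63.5) of members lay inside a gene body, against 53.2% (52.0 to 54.4) of other regions. Among members, 29.3% (25.7 to 33.2) lay within 1 kb of a transcript start, against 23.3% (22.3 to 24.3) of the regions outside clusters and 24.5% (22.1 to 26.9) of those in stitched pairs. The median distance to a start was 3.34 kb against 11.9 kb. Intergenic positions made up 28.0% (24.4 to 31.8) against 35.1% (33.9 to 36.2), and introns 38.5% against 38.8%.

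The difference at promoters was seen mainly among regions with a peak in each library. There, 76 of 235 members (32.3%, 26.4 to 38.7) lay at a promoter, against 360 of 2311 shared regions elsewhere (15.6%, 14.1 to 17.1). In clusters built from S1 alone the promoter share was 28.6% (22.8 to 35.0) against 20.9% (19.7 to 22.1) for the other S1 peaks, and in clusters built from S4 alone it was 29.8% (25.2 to 34.7) against 22.2% (21.1 to 23.4). The direction was the same in each library. Stretches dense in genes hold more transcript starts, and this was not taken into account.

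Broad regions were found mostly in clusters. A width over 2 kb was reached by 50 of 600 members (8.33%, 6.25 to 10.8) and by 29 of 6649 other regions (0.436%, 0.292 to 0.626), with 1.32% (0.773 to 2.11) of those in stitched pairs. The medians were closer, at 902 bp and 733 bp. Within S1 alone, 4.02% (1.85 to 7.49) of peaks in its clusters and 0.215% (0.0982 to 0.407) of its other peaks were over 2 kb, and within S4 alone 10.7% (7.77 to 14.3) and 0.454% (0.288 to 0.680). Regions of this width made up 18.1% (12.1 to 25.6) of members at heart clusters, 22.9% (10.4 to 40.1) at housekeeping clusters and 3.98% (2.34 to 6.30) at the others. Of the 129 gaps of at most 1 kb, 82 touched a region with a peak in each library, 31 lay between regions of the same single library and 16 between an S1 region and an S4 region.

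The NKX2-5 core was less frequent in member windows than in the regions outside clusters as a whole. Windows of 201 bp around the midpoint held AAGTG in 51.5% (47.4 to 55.6) of members, in 58.5% (57.3 to 59.7) of regions outside clusters and in 57.9% of all union regions. Stitched pairs lay between, at 56.2% (53.4 to 58.9), with an interval that overlaps that of the members, and single regions held it in 59.0% (57.7 to 60.4). TGACA lay in 53.7% (49.6 to 57.7) of members and 55.5% (54.3 to 56.7) of the others, 55.4% of all, and these intervals overlap. The spaced pair lay in 25 of 600 members (4.17%, 2.71 to 6.09) and in 6.68% (6.09 to 7.30) of the others, 6.47% of all, with touching intervals. In stitched pairs it lay in 4.60% (3.52 to 5.89) and in single regions in 7.18% (6.50 to 7.90), so that pairs were close to the dense clusters. Every spaced pair also counts as TGACA, and it holds only the last letters of AAGTG. Among shared regions AAGTG lay in 54.5% (47.9 to 61.0) of members and 65.0% (63.0 to 66.9) of the others, and TGACA in 58.7% (52.1 to 65.1) and 65.1% (63.1 to 67.1).

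Part of this moved with position and with library. At promoters AAGTG lay in 44.3% (36.8 to 52.0) of members and 41.9% (39.4 to 44.4) of other regions, and away from promoters in 54.5% (49.6 to 59.3) and 63.5% (62.2 to 64.9). Among shared regions alone it lay in 40.8% (29.6 to 52.7) and 45.0% (39.8 to 50.3) at promoters. Away from promoters it lay in 61.0% (53.0 to 68.6) and 68.7% (66.6 to 70.7) of shared regions, and the intervals overlap in each case. In clusters built from S4 alone the share was 48.0% (42.8 to 53.2) against 58.5% (57.2 to 59.9) for the other S4 peaks, whereas in those built from S1 alone it was 55.4% (48.6 to 62.0) against 60.5% (59.0 to 62.0), with overlapping intervals. A midpoint lies farther from the bound site in a broad region, and the part of width in these shares was not tested.

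**Figure D5:**
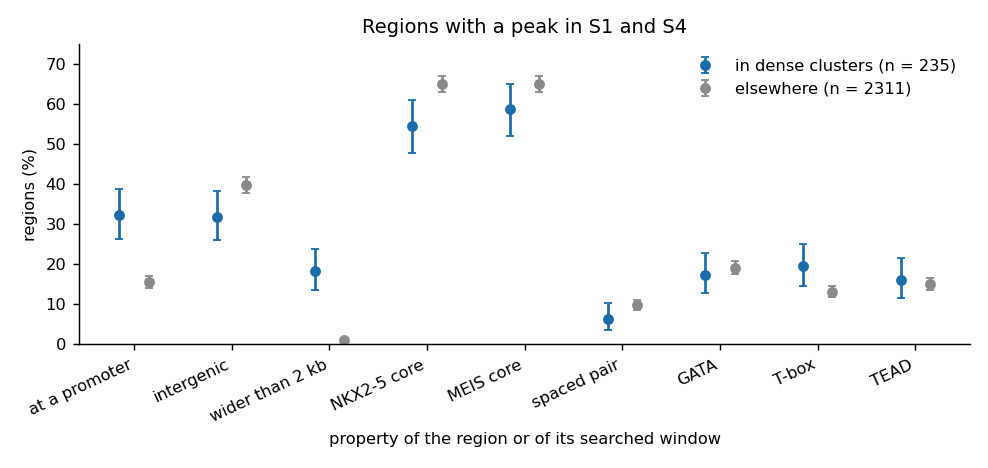
Percentage of regions with a peak in S1 and S4 that had each property (horizontal axis), for 235 regions in dense clusters and 2311 elsewhere, with exact binomial intervals (error bars, confidence level 0.95). Promoter position (32.3% against 15.6%) and a width over 2 kb (18.3% against 1.04%) were more frequent in clusters, and the NKX2-5 core (54.5% against 65.0%) was less frequent. With promoter regions and other regions taken apart, the intervals for the NKX2-5 core overlapped.

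Seen by cluster, 156 of the 171 (91.2%, 85.9 to 95.0) held AAGTG in at least 1 window and 107 held it in at least 2. TGACA lay in at least 1 window of 157 clusters and in at least 2 of 107. Each cluster has at least 3 windows, and AAGTG lay in 57.9% of all union regions, so high shares by cluster show no enrichment. Per window AAGTG lay in 51.5% of members. The spaced pair lay in 24 clusters, and Ldb3 was the only cluster with it in 2 windows. Apart from Ldb3, Myocd and the cluster of Tnnt1 and Tnni3, clusters with it included those of Nkx2-5, Pkp2, and Cox17 and Popdc2. At Nkx2-5 it lay in the S1 region 7852 bp from the nearest transcript start. The Cox17 and Popdc2 cluster held it in 1 of 5 windows.

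Over all members, sequences of partner factors gave little contrast. The GATA sequence lay in 15.0% (12.2 to 18.1) of members and 16.2% (15.3 to 17.1) of other regions. The TEAD sequence GGAATG lay in 15.0% and 15.2%, and the MEF2 motif in 4.17% and 4.26%. The T-box sequence AGGTGT lay in 12.3% (9.81 to 15.2) of members and 12.5% (11.7 to 13.3) of the others. Among shared regions it lay in 46 of 235 members (19.6%, 14.7 to 25.2) and 13.2% (11.8 to 14.6) of the others, which is 1 of 7 sequences compared. For shared regions outside promoters it lay in 22.6% (16.4 to 29.9) and 14.6% (13.0 to 16.2), and at promoters in 13.2% (6.49 to 22.9) and 5.83% (3.65 to 8.78). The contrast was not seen in clusters built from S1 alone (12.9% against 13.4%) or S4 alone (13.4%, 10.1 to 17.3, against an interval of 11.2 to 13.0). Those clusters also hold peaks without a partner, so they cannot check a contrast among shared regions.

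Repeated sequence was found in few members. Only 4 of 600 members had fewer than 50% of their sampled 32-mers unique in the assembly. The cluster of Gm10718 and neighbouring gene models at chr9:3025162-3038577 had 21.2% unique 32-mers, and its summed score was 1257.9 in S1 and 335.9 in S4. The Sfi1 cluster on chromosome 11, among the 5 longest with 31.1 kb, had 77.5%, and 3 of its 4 regions were called in S1 only, with widths up to 9946 bp. Ratios of S4 to S1 nearly as low were found where 32-mers were mostly unique, 0.257 at Hnrnpl (96.7% unique) and 0.275 at the second Tbx5 cluster (96.7%), and the part of repeated sequence in the ratios was not tested.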

How the data were processed

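NKX2-5 ChIP-seq was performed on E11.5 mouse hearts, with 2 ChIP libraries, S1 and S4, and 1 Input library that was not analysed here. The methods of the study name BOWTIE for alignment to mm9 and MACS 1.4 for the peak calls, and the submitters' processing notes also name CASAVA 1.4. The version of BOWTIE, the settings and the use of the Input as control are not given in the sources used here. Peaks were deposited by the authors as a separate list for S1 and for S4, with a score that is the negative log10 of the p-value multiplied by 10, without scaling from one library to the other. Starts and ends are base positions and are given here counted from 1. No read numbers were used, which leaves the depth unknown and a score without an error.

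From the lists, union regions and clusters were computed as stated above. The same 171 clusters were obtained with bedtools 2.31.1. Genes, transcript starts and exons were taken from GENCODE M1, and positions up to 1 kb from any transcript start were called promoter. The midpoint was that of the longest stretch covered by a peak of each library, or of the region where 1 library had a peak. Motifs were exact matches on both strands within 100 bp of it. For each region, 20 evenly spaced 32-mers were counted in the assembly. The members, gene lists and named clusters were chosen with earlier results of these data known. Named clusters are the 12 with the most regions, the 5 longest, the 5 with the most shared regions, the 5 with the best worse rank of the summed scores, the largest without a peak of S1 or of S4, up to 6 for each gene list, and those within 100 kb of genes whose enhancers the study examined. Clusters named outside this rule (those of Gata4, Tnni1, Tnnt1 and Tnni3, the second of Tbx5, the neighbour of Nppb, the miRNA genes on the X chromosome and of Mir143, Hnrnpl and Gm10718, and list genes given by a range) and the windows of Myocd and Tnnt1 were picked after their values were seen.

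The alternatives were a gap of 5 kb or 25 kb, at least 4 regions, a score of at least 200, merging within 1 kb, each library alone, an overlap that reached 50% of each peak, a promoter limit of 5 kb and windows of 25 bp. The procedure was tested on simulated data, where 5 sets of 100 planted clusters and 600 planted motifs in 2000 windows were all recovered. The planted groups lay far apart and the planted motifs were exact matches. The recovery therefore checks the code only, and groups parted by a gap just over the limit were not tried. The software was Python 3.11.15, samtools 1.23.1, pysam 0.24.0, scipy 1.17.1, numpy 2.4.6 and matplotlib 3.10.9.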

Additional observations from a re-analysis of the deposited data

How the results depend on the processing

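The number of clusters depended on every choice tried. It was 171, and it became 81 with a gap of 5 kb, 290 with 25 kb, 51 with at least 4 regions, 54 with a score of at least 200 and 109 with peaks merged within 1 kb. The share of union regions in clusters, 8.28%, became 3.95%, 14.4%, 3.31%, 4.94% and 5.13% in the same order. With 1 library left out there were 61 to 105 clusters, holding 5.07% to 6.86% of the peaks, with a median span of 11.3 to 12.4 kb in place of 13.2 kb. The median span became 7.26 kb with a gap of 5 kb, 23.0 kb with 25 kb, 19.6 kb with at least 4 regions and 16.3 kb with merging within 1 kb. These settings change the rule itself.

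The share of members with a peak in each library, 39.2%, became 45.9% with a score of at least 200 and 29.8% when the overlap had to reach 50% of both peaks. The promoter share, 29.3%, became 33.8% with at least 4 regions and 58.2% with a limit of 5 kb, and it was 28.6% to 29.8% with 1 library left out. Clusters over a gene body, 84.2%, became 90.2% with at least 4 regions and were 81.0% to 82.0% with 1 library left out. The NKX2-5 core AAGTG, the MEIS core TGACA and the spaced pair fell to 17.8%, 19.5% and 1.33% in windows of 25 bp, and TGACA and the pair to 48.3% and 2.50% with at least 4 regions. With 1 library left out they were 48.0% to 55.4%, 48.0% to 51.3% and 3.49% to 4.46%. Genes of the heart lists covered, 17.8%, became 10.6%, 26.7%, 11.1% and 7.78% with a gap of 5 kb, 25 kb, at least 4 regions and a score of at least 200, and 8.89% to 13.9% with 1 library left out, while the share of all protein-coding genes was between 0.319% and 1.87% under these settings. Of 73 values recomputed, 37 stayed within the interval, factor or spread of the reported value and 36 did not. No paired analysis was possible because there was 1 group of libraries and no result came from a test.

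The depth of the libraries is unknown, peaks under a score of 140 were not in the lists, and with 2 libraries of 1 condition the spread between hearts could not be measured. Regions of a cluster share a locus, so the intervals are too narrow where regions of 1 cluster resemble each other.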
